A study of Mus musculus with 7 samples.

Results

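Among 51426 genes counted in the livers of TET1 KO and WT mice, 10 with large shifts and no widely known part in liver biology were examined one by one. They were Gm15446, Adgrf1, Chrnb1 and Chrna4, which were higher in TET1 KO livers, and Plekhb1, Themis, Gm19619, Crygn, Tnnt1 and Mmd2, which were lower. The 10 genes were chosen by their shift in this same contrast, so their fold changes and adjusted p-values describe the choice and support nothing by themselves. Whether a gene has a role in the liver cannot be read from its counts, and the name of the set was not tested. The samples were liver mRNA of male mice, 3 WT and 4 TET1 KO (labelled TET-1-TKO), each strain labelled C57BL/6J. All 7 mice, controls included, had been fed a high-fat diet (HFD) for 16 weeks from 8 weeks of age, so there is no chow-fed group in this comparison. TET1 was lost in the whole body and not in the liver alone, and the study's methods give the line as B6;129S4-Tet1tm1.1Jae/J, bought as heterozygotes, with littermate controls. Whether the genotypes differ in strain origin at these 10 loci was not tested. The labels do not give litters, cages or batches. Each library held between 15005277 and 22746138 counts, and a count of 3 per library, taken as the floor, lay between 0.132 and 0.1999 CPM (counts scaled to library size) before normalization.

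TET1 is a dioxygenase that oxidizes 5-methylcytosine in DNA, mostly at CG dinucleotides, and so starts the removal of DNA methylation. Methylation at a CG-rich promoter commonly goes with a silent gene, whereas promoters with few CG dinucleotides often belong to genes used by few tissues. Liver tissue is mainly hepatocytes, with bile duct, endothelial, stellate and immune cells between them. Most of the proteins encoded here are known from other places. Themis acts in the selection of developing T cells, Tnnt1 is troponin T of slow muscle fibres, and Crygn belongs to the crystallins, structural proteins of the lens. Chrnb1 and Chrna4 are subunits of nicotinic acetylcholine receptors, of muscle and of neurons, respectively. Adgrf1 is an adhesion G protein-coupled receptor, Plekhb1 a membrane protein with a pleckstrin homology domain described in photoreceptors, and Mmd2 a member of the progestin and adipoQ receptor family. Gm15446 and Gm19619 are annotated as long non-coding RNAs.

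The promoters of 5 of these genes show how far the set ranges in CG content, with the 2 strongest gains, the strongest loss, the slow-muscle gene and the most CG-rich promoter. The sequences are the 250 bases before a transcription start in RefSeq (GRCm38.p6), on the strand of the gene, with CG dinucleotides in capitals.
Gm15446, chr5:109933313-109933562, plus strand: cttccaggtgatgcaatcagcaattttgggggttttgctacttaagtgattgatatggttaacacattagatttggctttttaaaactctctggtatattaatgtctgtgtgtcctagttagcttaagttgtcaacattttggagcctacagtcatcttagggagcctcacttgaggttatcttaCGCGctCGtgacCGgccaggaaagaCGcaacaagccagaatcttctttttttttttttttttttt
Adgrf1, chr17:43270097-43270346, plus strand: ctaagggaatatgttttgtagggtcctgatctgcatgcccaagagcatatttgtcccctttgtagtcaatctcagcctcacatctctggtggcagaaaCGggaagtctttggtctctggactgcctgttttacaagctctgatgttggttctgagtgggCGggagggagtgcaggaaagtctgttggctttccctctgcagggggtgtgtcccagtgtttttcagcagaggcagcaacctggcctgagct
Themis, chr10:28668110-28668359, plus strand: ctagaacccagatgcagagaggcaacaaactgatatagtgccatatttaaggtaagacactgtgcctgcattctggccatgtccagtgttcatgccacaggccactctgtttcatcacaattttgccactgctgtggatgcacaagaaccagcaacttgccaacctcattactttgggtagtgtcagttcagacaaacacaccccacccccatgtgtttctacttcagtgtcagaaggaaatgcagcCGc
Tnnt1, chr7:4515976-4516225, minus strand: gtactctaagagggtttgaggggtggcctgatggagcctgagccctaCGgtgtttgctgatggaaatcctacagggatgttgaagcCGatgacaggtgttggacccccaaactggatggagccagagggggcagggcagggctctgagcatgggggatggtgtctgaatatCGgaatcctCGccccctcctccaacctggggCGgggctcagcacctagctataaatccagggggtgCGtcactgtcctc
Chrna4, chr2:181039178-181039427, minus strand: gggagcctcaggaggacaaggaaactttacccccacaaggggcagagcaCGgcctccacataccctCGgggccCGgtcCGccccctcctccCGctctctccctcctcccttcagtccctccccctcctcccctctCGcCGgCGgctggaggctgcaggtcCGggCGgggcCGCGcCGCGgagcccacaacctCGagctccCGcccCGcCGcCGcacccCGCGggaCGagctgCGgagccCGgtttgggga
In the full window, from 250 bases before to 50 bases after the start, Themis held 1 CG dinucleotide, Adgrf1 2, Gm19619 3, Gm15446 5, and Plekhb1 and Tnnt1 6 each. Chrnb1 held 17, Crygn and Mmd2 18 each, and Chrna4 33. These are the first start listed for each gene, and a second one is listed for Plekhb1, with 3, and for Themis, with 2. For Chrna4, on the minus strand, the start used lies inside the annotated gene, which reaches position 181043579. The sequence before that end was not examined. The median of the 10 genes was 6, beside a median of 20 (quartiles 11 and 28) over the 10326 tested genes (70.0%) that had a promoter in the table. Over the 215 genes with a promoter that passed the test in either direction, the median was 11. At most 5 CG dinucleotides were found in 4 of the 10 genes (5 with the second start of Plekhb1), in 13.0% of the tested genes and in 29.3% of those that passed. Low and high counts occurred in both directions, since Adgrf1 rose with 2 and Chrna4 rose with 33, while Themis fell with 1 and Crygn and Mmd2 fell with 18. DNA methylation was not measured in these samples, and these counts say nothing of it. Of motifs searched on both strands, TATAAA was present in 2 of the 10 windows and in 13.6% of 32851 promoters, and it began 30 bases before the start of Tnnt1 and 144 bases before that of Chrnb1. The motif GGGCGG, which itself contains a CG, was present in 6 of the 10 and in 35.7% of all promoters. TTCNNNGAA was in 1 of the 10, Gm15446, and in 8.3% of all. CAAAGTCCA and the direct repeat of AGGTCA spaced by 1 base were in none of the 10 windows, and in 0.475% and 0.0396% of all promoters.

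**Figure D1:**
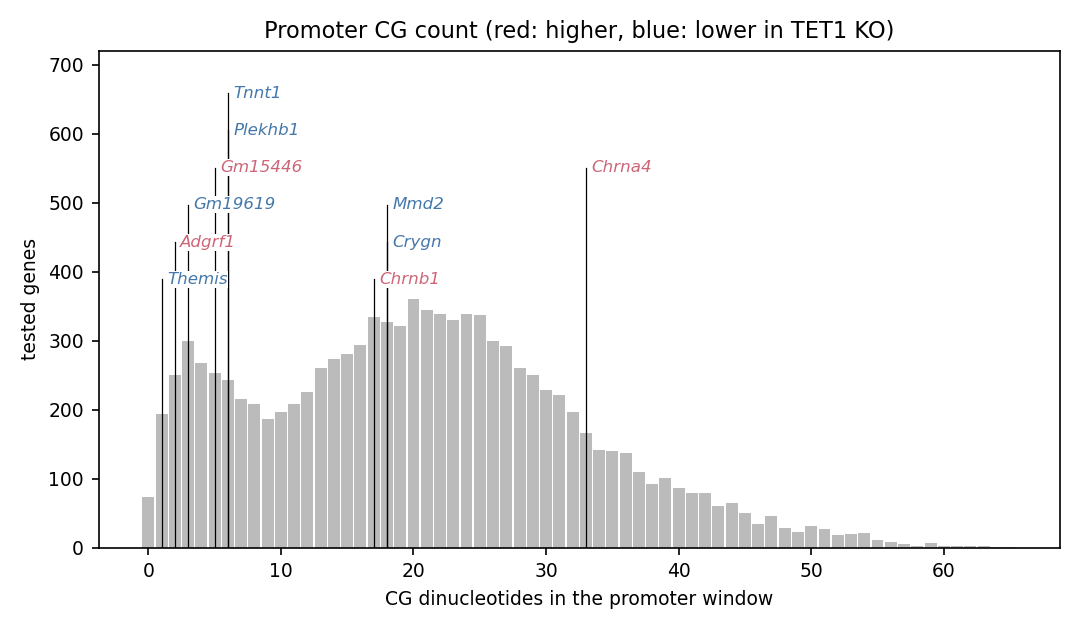
Number of CG dinucleotides in the promoter window (x axis) against the number of tested genes with that number (y axis, grey bars), with lines for the 10 genes. Themis, Adgrf1, Gm19619, Gm15446, Plekhb1 and Tnnt1 lie between 1 and 6, left of the median of 20, and Chrna4 lies at 33.

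The targeted gene itself was close to the floor. Reads of Tet1 numbered 1, 4 and 1 with WT genotype and 2, 1, 4 and 1 with TET1 KO genotype (exact two-sided permutation test on CPM, p = 0.686, smallest possible p = 0.0286), so these libraries cannot check the genotype by Tet1 mRNA. Its family members Tet2 and Tet3 had log2 fold changes of -0.01 (adjusted p = 0.984 in edgeR's quasi-likelihood test) and 0.32 (adjusted p = 0.223). Counts were compared by that test over 14754 genes. It called 129 genes higher (0.874%) and 169 lower (1.15%), together 2.02%, at an adjusted p under 0.05. The 4 higher and 6 lower genes of the set were all among them, by choice. For all 10 the ranges of the genotypes were separate. Over all tested genes the groups were separated in this way in 11.7% with TET1 KO higher and in 10.8% with TET1 KO lower.

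The nearest to a gene switched on was Gm15446 (ENSMUSG00000090015, chr5:109933563-109941710). The 3 WT livers had 8, 2 and 0 counts, against 120, 128, 128 and 138 counts with TET1 KO. Levels, in CPM after TMM normalization, were 0.159 ± 0.208 (SD, n = 3) in WT and 7.37 ± 1.20 (SD, n = 4) in TET1 KO. The lowest TET1 KO liver was 16.3-fold above the highest WT liver. The summed counts differed 42.3-fold per total count (exact 95% interval 22.8 to 88.7, which covers counting error only). Its log2 fold change of 5.47 (standard error, SE, 0.49; adjusted p = 0.00116) was the second largest in size of all tested genes. WT replicate 1 alone held 8 of the 10 WT counts, and without it the log2 fold change was 7.09. A protein-coding gene model, LOC115490200, spans the whole of Gm15446 in RefSeq and was not in the count tables. The library kit marks strand, but the strand setting of the counting is not given in the sources used here, so the reads may belong to either.

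Adgrf1 (ENSMUSG00000041293, chr17:43270283-43325876) was likewise barely detected in WT. The WT livers had 3, 0 and 1 counts, all at or under the floor, and the TET1 KO livers had 33, 19, 35 and 43. The levels were 0.0676 ± 0.0746 CPM (SD, n = 3) and 1.80 ± 0.328 CPM (SD, n = 4). The nearest livers of the groups differed 9.07-fold, and the summed counts differed 26.7-fold (exact 95% interval 10.2 to 99.6). Its log2 fold change, 4.68 (SE 0.58, adjusted p = 0.00307), moved to 5.89 without WT replicate 1 and to 4.03 without WT replicate 2. The WT group held 4 counts in all, which is why this interval is wide.

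The acetylcholine receptor subunits rose from a low but nonzero level. Chrna4 (ENSMUSG00000027577, chr2:181022311-181043579), which forms the main nicotinic receptor of the brain together with Chrnb2, had 31, 30 and 18 counts in WT livers. It had 69, 144, 65 and 133 counts in TET1 KO livers. The mean level was 1.25 ± 0.266 CPM (SD, n = 3) in WT against 5.99 ± 3.01 CPM (SD, n = 4), with TET1 KO replicate 2 at 10.1 CPM and the other TET1 KO livers between 3.32 and 6.17 CPM. This gave a log2 difference of 2.23 (SE 0.39, adjusted p = 0.0207), and 1.86 without TET1 KO replicate 2 (adjusted p = 0.0345).
Chrnb1 (ENSMUSG00000041189, chr11:69784036-69795966), the beta subunit of the muscle receptor, had 8, 4 and 1 counts in WT and 15, 13, 18 and 28 counts in TET1 KO livers. At these depths the livers of the groups were separated by as little as 2.33-fold, from 0.394 CPM in WT replicate 1 to 0.916 CPM in TET1 KO replicate 2. Its log2 fold change was 2.27 (SE 0.51), and the adjusted p of 0.049 was the closest to the threshold of the set.

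Of the lower genes, Themis (ENSMUSG00000049109, chr10:28668360-28883820) came nearest to being switched off. The WT livers had 217, 418 and 206 counts. TET1 KO replicate 1 had 0 counts, which allows up to 0.184 CPM before normalization, and the other TET1 KO livers had 21, 18 and 31. WT livers averaged 13.1 ± 3.66 CPM (SD, n = 3) and TET1 KO livers 0.960 ± 0.688 CPM (SD, n = 4), 7.31% of the WT mean. On the log2 scale the change was -3.75 (SE 0.51, adjusted p = 0.00784), and -3.36 without the liver at 0. Themis lies on the chromosome of Tet1, 33.9 Mb away.

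Crygn (ENSMUSG00000038135, chr5:24751002-24757848) had 90, 70 and 85 counts in WT and 12, 2, 7 and 20 counts in TET1 KO livers. The WT level of 4.01 ± 0.966 CPM (SD, n = 3) compared with 0.545 ± 0.359 CPM (SD, n = 4), so that 13.6% of the WT mean remained (log2 fold change -2.80, SE 0.40, adjusted p = 0.00968). What remained varied from liver to liver, between 0.141 and 0.928 CPM. Part of Crygn overlaps an annotated long non-coding RNA, Gm33591, which was not in the count tables.

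Tnnt1, Mmd2 and Gm19619 kept close to the same share of their WT level. Tnnt1 (ENSMUSG00000064179, chr7:4504569-4515975) had 39, 57 and 32 counts in WT and 4, 7, 8 and 11 in TET1 KO livers, and 20.6% of the WT mean remained (log2 fold change -2.25, SE 0.33, adjusted p = 0.00977). Mmd2 (ENSMUSG00000039533, chr5:142563480-142608936) had 181, 205 and 169 counts in WT and 14, 37, 41 and 56 in TET1 KO livers, and 22.9% remained (log2 fold change -2.11, SE 0.29, adjusted p = 0.00743). In Mmd2 the WT livers were very close to each other, between 8.50 and 9.33 CPM, whereas TET1 KO replicate 1 at 0.877 CPM lay well under the other TET1 KO livers at 2.10 to 2.61 CPM. Gm19619 (ENSMUSG00000107198, chr5:91257571-91283076) had 178, 295 and 129 counts in WT and 33, 31, 24 and 40 in TET1 KO livers, and 19.6% remained (log2 fold change -2.37, SE 0.25, adjusted p = 0.00272).

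Plekhb1 (ENSMUSG00000030701, chr7:100643896-100662394) had the highest level of the set and the smallest change. It had 504, 680 and 496 counts in WT and 133, 109, 214 and 237 in TET1 KO livers. WT livers averaged 26.8 ± 1.77 CPM (SD, n = 3), TET1 KO livers averaged 9.49 ± 1.73 CPM (SD, n = 4), so that 35.4% remained, and the nearest livers of the groups differed 2.26-fold. Its log2 change of -1.49 (SE 0.16, adjusted p = 0.0028) ranked 320th in size but 10th by p among the tested genes. Of all tested genes, 30 changed by more than 3 on the log2 scale, and 3 of them were Gm15446, Adgrf1 and Themis.

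**Figure D2:**
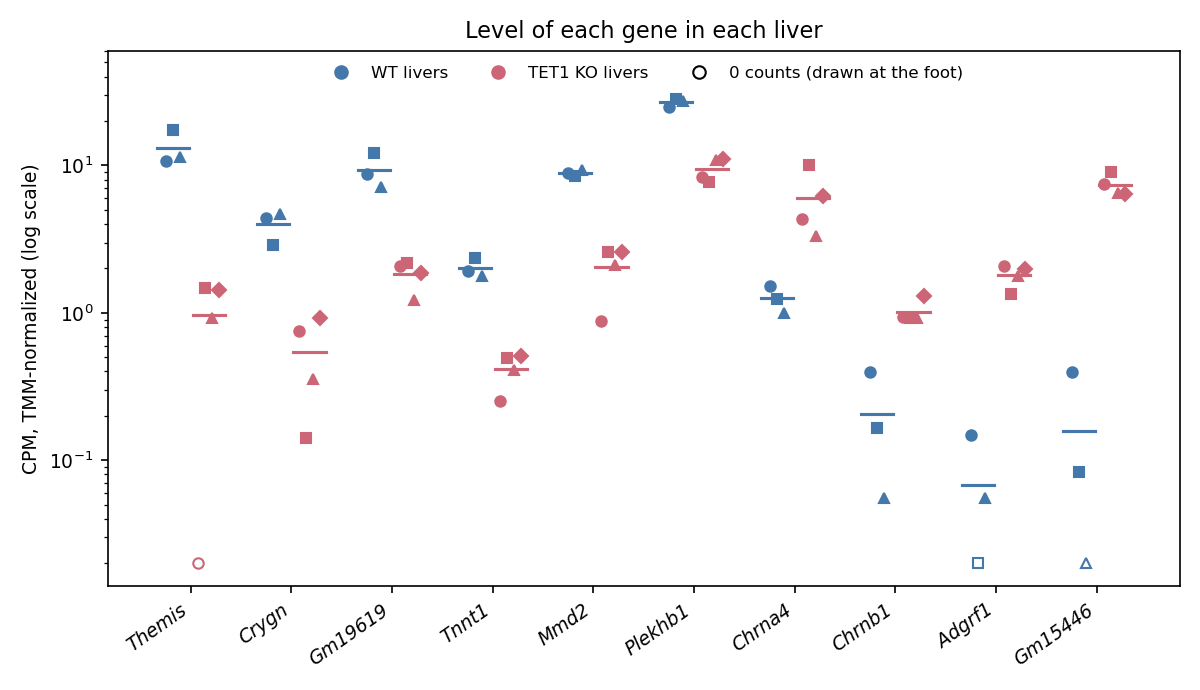
Level of each gene (x axis) in each liver, in TMM-normalized CPM on a log scale (y axis). Blue points are WT livers, red points are TET1 KO livers, the marker shape gives the replicate number, bars are group means, and open points have 0 counts. No gene has overlapping groups, and the gaps are widest in Gm15446, Adgrf1 and Themis.

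Per kilobase of exon the genes changed places between the genotypes. The exon lengths came from GENCODE M1 by gene identifier, which lacked Gm19619. In WT livers the order was Plekhb1 at 7.54 ± 0.497 CPM per kb (SD, n = 3), Crygn at 4.997 ± 1.21, Mmd2 at 2.69 ± 0.125, Themis at 1.45 ± 0.405, Tnnt1 at 0.923 ± 0.142 and Chrna4 at 0.254 ± 0.0539. Neighbours in this order did not overlap between livers. Chrnb1, Gm15446 and Adgrf1 followed, between 0.081 and 0.0175 CPM per kb, and overlapped. In TET1 KO livers Plekhb1 was still first at 2.67 ± 0.488 CPM per kb (SD, n = 4), but Gm15446 at 1.95 ± 0.318 and Chrna4 at 1.21 ± 0.610 came next and overlapped their neighbours. Themis, with 0.106 ± 0.0762 CPM per kb, had the lowest mean, but its livers overlapped those of Tnnt1 at 0.19 ± 0.0543.

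The spread among livers differed between genes. TET1 KO replicate 2 lay at an end of the TET1 KO range for every gene but Tnnt1, as the highest TET1 KO liver for 5 of the 10 genes and the lowest for 4. In TET1 KO livers the coefficient of variation was 71.7% for Themis, 66.0% for Crygn and 50.3% for Chrna4, and from 16.3% to 39.8% for the other genes. Genes within 1.5-fold of the same mean level in TET1 KO livers had medians of 35.6%, 41.0% and 17.9%, respectively. Chrna4 thus varied more than 97.4% of the 2167 genes of like level, whereas the variation of Gm15446 (16.3%) lay near the median of its like genes (16.7%).

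Each liver was left out in turn. All 70 fold changes obtained in this way had the sign seen with all livers. Gm15446, Adgrf1, Plekhb1, Gm19619, Crygn and Mmd2 had an adjusted p under 0.05 in all 7 fits, with highest values of 0.0212, 0.0248, 0.0248, 0.0248, 0.0397 and 0.0437, respectively. Without WT replicate 2, the deepest library, 4 genes passed the threshold no longer. Their adjusted p-values were 0.0527 for Themis, 0.0772 for Tnnt1, 0.127 for Chrna4 and 0.239 for Chrnb1. The log2 fold changes in that fit were -3.50, -2.13, 2.22 and 2.11, beside -3.75, -2.25, 2.23 and 2.27 with all livers, and over all tested genes it called 38 in place of 298. Chrna4 was also lost without WT replicate 3 (adjusted p = 0.0546). Chrnb1 passed in only 1 of the 7 fits, the one without WT replicate 1 (log2 fold change 3.05, adjusted p = 0.0437), and without the others its fold change ranged from 1.88 to 2.31. It also had an adjusted p of 0.0507 when libraries were scaled by their size alone.

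**Figure D3:**
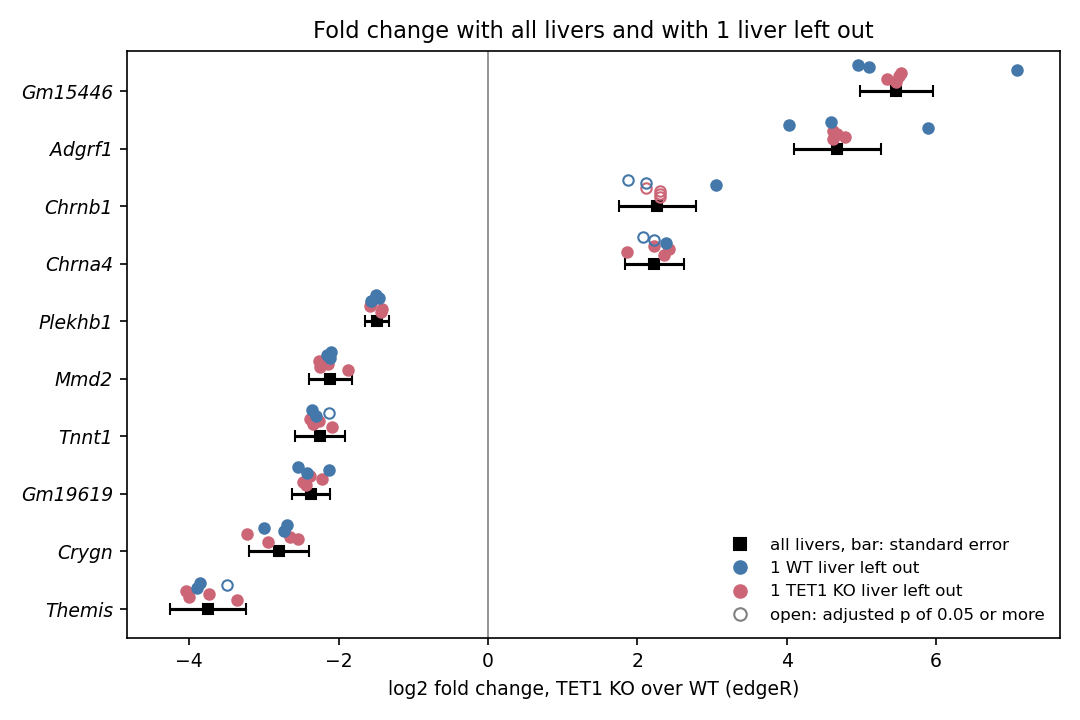
The log2 fold change of TET1 KO over WT (x axis) for each gene (y axis) with all livers (black squares, bars are standard errors) and with 1 WT (blue) or 1 TET1 KO liver (red) left out. Open points have an adjusted p of 0.05 or more; Chrnb1 has 6 of them, Chrna4 has 2, and Themis and Tnnt1 have 1 each.

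Relatives of these genes were examined from lists of gene families. Of 46 related genes tested, 1 passed the test with edgeR, a share close to the 2.02% of all tested genes. Lists of a few genes would mostly hold no call at that share. With DESeq2, 4 related genes passed, of 72 with counts, not all of which had an adjusted p. Over all genes, 8.74% (of 15051 with an adjusted p) passed with DESeq2, and 26.3% of those tested had an unadjusted p under 0.05 in edgeR. The related gene called by edgeR was Paqr9, a receptor family member like Mmd2, which fell (WT 248.8 ± 42.1 CPM, SD, n = 3, and TET1 KO 134 ± 14.2 CPM, SD, n = 4). Its log2 change was -0.90 (SE 0.15, adjusted p = 0.0181). The call was lost without WT replicate 2 and without TET1 KO replicate 3. The other 7 tested genes of the progestin and adipoQ receptor family did not pass, and the median of the family without Mmd2 was -0.34, beside 0.012 over all tested genes.

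The other nicotinic receptor subunits were mostly absent. Of 16 subunits, 8 had no counts in any liver and 11 had at most 3 counts in each, among them Chrna1, Chrnd and Chrng, partners of Chrnb1 in the muscle receptor. Chrne, which takes the place of Chrng in adult muscle, had 2, 2 and 5 counts in WT and 8, 3, 2 and 6 counts in TET1 KO livers and was too low to be tested. Of the 2 tested subunits besides Chrna4 and Chrnb1, none passed, by edgeR or DESeq2, and none had an unadjusted p under 0.05. Chrnb2 had a log2 fold change of 0.55 (adjusted p = 0.239) and Chrna2 of -0.16 (adjusted p = 0.78). Among 5 tested genes of the cholinergic synapse and of receptor assembly, 0 passed with edgeR, 3 had an unadjusted p under 0.05 (26.3% of all tested genes) and 1 passed with DESeq2. The last was Bche, the butyrylcholinesterase made by the liver, at -0.80 (edgeR adjusted p = 0.099), and Agrn, a basement membrane protein that clusters the muscle receptor, had 0.51 (edgeR adjusted p = 0.1).

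No other troponin passed the test beside Tnnt1, with 0 of 2 tested called by edgeR, which says little beside 2.02% of all tested genes. Tnni1, the inhibitory subunit of slow muscle, had no counts. Tnnc1, the calcium-binding subunit of slow and cardiac muscle, reached 2.62 on the log2 scale (SE 0.90, edgeR adjusted p = 0.108, DESeq2 adjusted p = 0.0226), with 72 counts in TET1 KO replicate 1 and between 4 and 20 in the other TET1 KO livers. Tnnt2, the cardiac troponin T, had 1.57 (edgeR adjusted p = 0.102). Both had an unadjusted p under 0.05.
Of 17 further adhesion G protein-coupled receptors tested, 0 passed by edgeR or DESeq2 and 2 had an unadjusted p under 0.05, beside 26.3% of all tested genes. The difference between these shares was not tested. Their median was -0.13, with Adgra3 at -0.11 (adjusted p = 0.655) and Adgrl2 at -0.37 (adjusted p = 0.208). Among crystallins 10 of 16 had no counts, and the 2 tested besides Crygn, Cryab at 0.15 (adjusted p = 0.688) and Crybb3 at 0.40 (adjusted p = 0.736), passed with neither tool and had an unadjusted p over 0.05. Plekhb2, the close relative of Plekhb1, had -0.75 (SE 0.23, edgeR adjusted p = 0.0879) and passed with DESeq2.

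Themis is known from T cells, so genes of its family and of T cell receptor signalling were read beside it. Of 9 tested, none passed by edgeR or DESeq2 and none had an unadjusted p under 0.05. Over all genes these shares were 2.02%, 8.74% and 26.3%, so 0 edgeR calls among 9 genes says little. The median of the 9 was -0.18, with Grb2, a direct partner of Themis, at -0.18 (adjusted p = 0.352) and Plcg1 at 0.18 (adjusted p = 0.488). The summed level of 13 T cell markers was 4.35 to 9.11 CPM in WT and 6.87 to 15.6 CPM in TET1 KO livers (exact permutation test, p = 0.286). The 6 tested T cell markers had a median log2 fold change of 0.59, from -0.05 for Cd3e (adjusted p = 0.948) to 1.13 for Cd4 (adjusted p = 0.0954), and Cd3e alone was below 0. Of these 0 passed with edgeR or DESeq2, and 1, Cd4, had an unadjusted p under 0.05 (26.3% of all tested genes).

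Markers of other cells were read beside these genes, since in a piece of liver fewer cells of a type and less RNA per cell cannot be told apart. For Tnnt1 and Chrnb1, 11 of 15 skeletal muscle markers had at most 3 counts in any liver, with Myh7 and Myog at 0, and the sum was 12.3 to 19.0 CPM in WT and 17.4 to 30.8 CPM in TET1 KO livers, most of it from Neb. For Chrna4 and Plekhb1, the sum of 9 neuron and Schwann cell markers, with Snap25 at 0, was 8.95 to 11.8 CPM in WT and 13.0 to 18.2 CPM in TET1 KO livers (exact permutation test, p = 0.0571), and 0 of 4 tested passed with edgeR or DESeq2 (1 with an unadjusted p under 0.05). Cholangiocyte markers summed to 29.7 to 37.9 CPM in WT and 46.2 to 68.0 CPM in TET1 KO livers (exact permutation test, p = 0.0571). Of these 0 of 5 tested passed with edgeR, 4 had an unadjusted p under 0.05 (26.3% of all tested genes) and 2 passed with DESeq2. Most of the sum came from Spp1 and Sox9. In the duct keratins and Epcam TET1 KO replicate 4 stood apart, with Krt19 at 6.68 CPM beside 1.06 to 1.69 CPM in the other TET1 KO livers, Epcam at 4.87 beside 0.689 to 0.986 CPM and Krt7 at 2.69 beside 0.767 to 1.41 CPM. Without this liver the log2 fold changes were 5.53 for Gm15446, 4.62 for Adgrf1, 2.22 for Chrna4 (adjusted p = 0.0242) and 2.12 for Chrnb1 (adjusted p = 0.0541). Leaving out this liver does not remove the higher sum, which was 68.0 CPM in TET1 KO replicate 2 and 63.1 CPM in replicate 4. The part of these cells in the 4 gains was therefore not tested. Of 5 pancreatic acinar markers, Cela1 alone was tested and rose (log2 fold change 1.85, adjusted p = 0.00913). The other 4, Cpa1, Pnlip, Ctrb1 and Cel, had at most 7 counts in any liver, with means of 0.113, 0.113, 0.162 and 0.0138 CPM in WT and 0.0528, 0.0881, 0.0584 and 0.0528 CPM in TET1 KO livers. TET1 KO replicate 2 stood apart by its adipocyte markers Adipoq, Plin1 and Lep, with a sum of 9.58 CPM beside at most 0.0626 CPM in the other TET1 KO livers and 0, 1.24 and 0.0552 CPM in the WT livers. WT replicate 2, the highest of these, also had 7 counts each of Cpa1, Pnlip and Ctrb1, beside 0 to 4 in the other WT livers, and is the liver without which 4 of the 10 genes lost their call. Without TET1 KO replicate 2, 9 of the 10 genes passed, all but Chrnb1. The part of these cells in the results was not tested. Sums of the B cell, macrophage, stellate and hepatocyte lists overlapped between the genotypes, and those of the endothelial list were 126 to 128 CPM in WT and 106 to 124 CPM in TET1 KO livers. No tested marker of these lists passed with edgeR. An unadjusted p under 0.05, found in 26.3% of all tested genes, occurred in 1 of 4 B cell and 0 of 7 macrophage markers. It also occurred in 3 of 7 stellate, 1 of 5 endothelial and 1 of 6 hepatocyte markers. With DESeq2, 3 stellate, 1 endothelial and 1 hepatocyte marker passed, beside 8.74% of all genes. Most of the stellate sum was Dcn, at 126 to 208 CPM, while the collagens had log2 fold changes of -0.96 for Col1a1, -0.84 for Col1a2 and -0.99 for Col3a1 (edgeR adjusted p = 0.0874, 0.101 and 0.0853). Of the other lists, Lyve1 of the endothelial cells had -1.08 (edgeR adjusted p = 0.0778), Apoa1 of the hepatocytes 1.10 (edgeR adjusted p = 0.0818) and Cd79b of the B cells 0.88 (edgeR adjusted p = 0.173).

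The genes lie on 6 chromosomes, with 4 of the 10 on chromosome 5, where 6.52% of the tested genes with a known position and 5.59% of those called were found. Adjacent ones on this chromosome are 18.7 to 66.5 Mb apart. The nearest tested gene on each side was looked up for each, which gave 20 neighbours, 5 of them within 10 kb. Of the 20 neighbours, 2 passed the test, both higher and both beside Chrna4. Over all tested genes, 2.02% passed and 0.874% passed as higher. Whether neighbours of the set differ from other genes was not tested. Col20a1, a collagen gene 4766 bases away, had 30, 24 and 23 counts in WT and 76, 41, 55 and 53 counts in TET1 KO livers (log2 fold change 1.37, SE 0.30, adjusted p = 0.0471). Ppdpf, 143243 bases away, had 0.76 (SE 0.17, adjusted p = 0.049). Both calls were lost when any liver but TET1 KO replicate 4 was left out, and with scaling by library size alone.
The other 18 neighbours did not pass. Beside Themis, Gm9824 had -1.16 (SE 0.41, adjusted p = 0.115), with 14.4 to 23.6 CPM in WT and 2.38 to 13.4 CPM in TET1 KO livers, and TET1 KO replicate 1, in which Themis had 0 counts, was the lowest. Btc, which encodes betacellulin, had -1.16 (adjusted p = 0.1) beside Gm19619. Zfp932 had 0.67 (adjusted p = 0.0965) beside Gm15446, and Adgrf5, of the same receptor family, had 0.17 (adjusted p = 0.429) beside Adgrf1. The genes abutting Chrnb1, Zbtb4 at 10 bases and Fgf11 at 102 bases, had 0.50 (adjusted p = 0.138) and 0.78 (adjusted p = 0.219). Next to Tnnt1, which fell, Ppp1r12c at 806 bases had 0.36 (adjusted p = 0.16). In 15 of the 20 pairs the neighbour's fold change had the sign of the gene beside it. This count takes in values within error of 0, such as Mthfd2l beside Gm19619 at -0.02 (SE 0.26), and the share among other pairs of neighbouring genes was not computed. The neighbours' median size of change was 0.33.

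**Figure D4:**
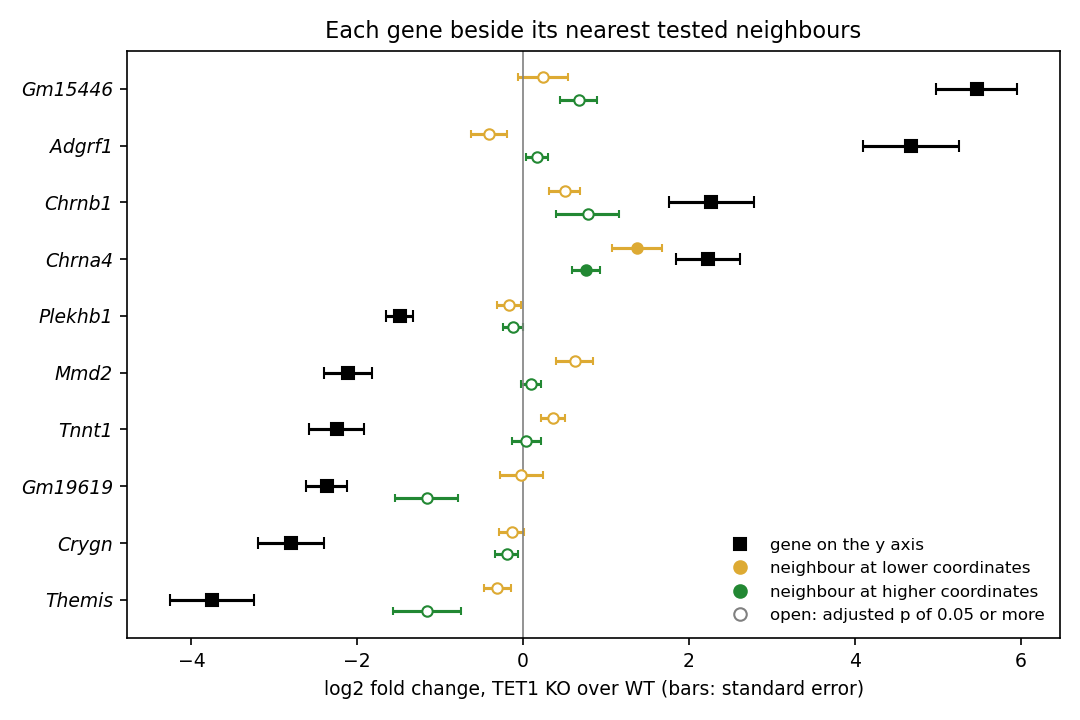
The log2 fold change of TET1 KO over WT (x axis, bars are standard errors) of each gene (black squares) and of its nearest tested neighbours at lower (yellow) and higher coordinates (green). Filled circles have an adjusted p under 0.05, which only Col20a1 and Ppdpf beside Chrna4 reach, and all 20 neighbours lie between -1.16 and 1.37.

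For each gene, the tested gene outside the set with the most similar profile was found by Pearson's r of log2 CPM over the 7 livers. These values contain the difference between the genotypes and are given as a description. The closest profiles were Tk1 for Gm15446 (r = 0.993), Xkr6 for Adgrf1 (0.991), Cnrip1 for Chrnb1 (0.984) and 1700096K18Rik for Chrna4 (0.987). For the lower genes they were M6pr for Themis (0.996), Vnn1 for Tnnt1 (0.995), Bhlhb9 for Gm19619 (0.994), Gstm5 for Mmd2 (0.993), Nat1 for Plekhb1 (0.989) and Igsf23 for Crygn (0.984). Between 5 genes, for Crygn, and 225 genes, for Themis, had an r over 0.95. Similar profiles did not mean similar sizes, since M6pr had a log2 fold change of -0.21 (adjusted p = 0.261) beside -3.75 for Themis, whereas Vnn1, which encodes a pantetheinase, had -3.28 (adjusted p = 0.00224) beside -2.25 for Tnnt1.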

How the data were processed

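The 3 WT and 4 TET1 KO liver libraries were grouped by the sample labels. The authors deposited raw counts per gene for each mouse, and the submitters' processing notes name Trimmomatic 0.36, GSNAP, featureCounts 1.5.3 and GRCm38. The annotation release and the strand setting are not given in the sources used here. Genes were joined by identifier, because 26 symbols of TET1 KO replicate 1 had become dates, and 5 repeated entries were left out.

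In R 4.3.3, counts were analysed with edgeR 4.0.16 (filterByExpr, TMM, glmQLFit with legacy = FALSE, quasi-likelihood test), with Benjamini-Hochberg adjustment over 14754 genes. The kept genes held at least 99.88% of each library. Standard errors were the fold change divided by the root of F. Levels are TMM-scaled CPM (prior count of 2 on the log2 scale). DESeq2 1.42.0 was an alternative. Scripts were tested on simulated data. Where nothing says that samples are independent of litter or cage, p-values measure only the spread between these mice. Ratios of summed counts have exact Clopper-Pearson 95% intervals. Exact permutation tests (two-sided) used the 35 groupings of 7 mice.

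The members, gene family lists and marker lists were chosen with earlier results of these data known. Also named were Tet1, Tet2 and Tet3, the called relatives or else the 1 or 2 most abundant per family, the nearest tested gene on each side, and the gene with the most similar profile. Bche and Tnnc1 fall under the rule of abundance. Single marker genes and relatives without counts were named after their values were seen. Positions and promoters are from RefSeq GRCm38.p6, which placed 94.6% of the tested genes. The alternatives were DESeq2, RLE scaling, library size only, no filter, robust dispersions, at least 10 counts in every library, leaving out each mouse, and a block for the replicate number.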

Additional observations from a re-analysis of the deposited data

Results flagged for a closer look

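Among 63 genes and list sums examined in the 4 TET1 KO livers, 3 held a liver whose gap to the nearest other liver, as a share of the range, passed Dixon's 95% critical value, and chance gives about 3.2. For Chrnb1 the share was 0.939, since TET1 KO replicate 4 had 1.30 CPM and the other livers 0.916 to 0.939 CPM. For Tnnc1 it was 0.847, with TET1 KO replicate 1 at 4.51 CPM and the next liver at 0.928 CPM. For the summed adipocyte markers it was 0.993, with TET1 KO replicate 2 at 9.58 CPM and the next liver at 0.0626 CPM. Krt19 and Epcam, in which TET1 KO replicate 4 stood apart, were not among the 63.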

How the results depend on the processing

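Of 134 alternative values of the 10 fold changes, 122 kept their direction and side of the threshold, 12 kept the direction but not the call, and 0 changed direction. Of the lost calls, 8 were of Chrnb1, 2 of Chrna4, 1 of Themis and 1 of Tnnt1. The number of genes of the set called was 10 with DESeq2, RLE scaling, robust dispersions and no filter, 9 with library size only and 4 with at least 10 counts in every library, a filter that leaves 4 of the 10. With each mouse left out it ranged from 6 to 10. Related genes called went from 1 to 4 with DESeq2, and from 0 to 2 with each mouse left out. Neighbours called went from 2 to 0 with library size only, to 1 with at least 10 counts in every library, and from 0 to 3 with each mouse left out. With the replicate number as a block, 9 of the 10 genes, 3 related genes and 5 neighbours were called. Same-numbered livers did not deviate together (correlations 0.209, -0.123 and -0.0964), so the number does not pair the samples. Genes called over the whole table were 298, 1315 with DESeq2, 419 with library size only, 592 with no filter and 1326 with the block, and from 38 without WT replicate 2 to 891 without TET1 KO replicate 4. The causes were not tested. Library size alone moved the median log2 fold change of all genes from 0.012 to -0.081. Depth limits Gm15446, Adgrf1 and Chrnb1, which had 10, 4 and 13 counts in the WT livers together.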
